A study of Mus musculus with 12 samples.

Results

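Decitabine-treated B16F10 cells were set against decitabine-treated 4T1 cells, to ask which differences between the lines remained under the drug and which genes were on in both treated lines. The comparison uses the 6 decitabine libraries of the 12 RNA sequencing libraries of the study, 3 per line, joined gene by gene on the Ensembl identifier. The 6 untreated libraries, 3 per line, gave the line differences without the drug. B16F10 is a mouse melanoma line and 4T1 a mouse mammary carcinoma line, both grown in culture. The groups were B16F10 with 0.1 µM decitabine (DAC), 4T1 with 1 µM decitabine, untreated B16F10 and untreated 4T1. Treatment lasted 48 h in both lines. Because the dose differed with the line, line and dose cannot be told apart in any difference between the treated lines. Nothing in the labels tells if replicates came from different cultures, and each p-value therefore reflects the variation among these libraries, which may be technical.

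Decitabine is a cytidine analogue that is built into replicating DNA, where it traps DNA methyltransferases, so that methylation is lost as cells divide. Genes that adult cells keep silent by promoter methylation, above all germline genes, are its best known targets, and interferon-stimulated genes are often induced with them. The identity of a melanoma or a carcinoma line rests on lineage transcription factors and their targets, which switch on pigment or epithelial genes. Methylation was not measured in the libraries described here.

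The libraries held 48197936 to 76042600 estimated counts. The 10 most counted genes took 9.22 to 11.1% of counts in treated B16F10 and 22.4 to 23.9% in treated 4T1, against 8.34 to 9.67% in untreated B16F10 and 5.42 to 5.8% in untreated 4T1. In treated 4T1 a single gene, Gm42860, took 5.34 to 5.69%. Levels are given as CPM, counts brought to a common library size with TMM scaling, and a line difference is the log2 ratio of B16F10 over 4T1. A gene was called where the edgeR adjusted p was under 0.05 and the difference at least 2-fold. A gene was on in a group at 1 CPM or more in each of its 3 libraries, and off where all 3 were under 0.1 CPM.

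Both treated lines kept the markers that their names call for. All 12 melanocyte markers were on in treated B16F10, where they summed to between 9932 and 10121 CPM per library, against 9.81 to 11.3 CPM in treated 4T1. All 14 mammary epithelial markers were on in treated 4T1, at 3550 to 3820 CPM in sum, while in treated B16F10 they summed to 8.23 to 11.9 CPM. Markers of other cell types were low but not equal between the lines. The 6 blood markers summed to 0.719 to 1.75 CPM in treated B16F10 and 1.74 to 3.24 CPM in treated 4T1, none was on in either, and Adgre1 and Hbb-bs were at 0 in all 6 treated libraries. The 5 fibroblast markers reached 45.1 to 47.6 CPM in treated B16F10 and 9.86 to 12.1 CPM in treated 4T1, nearly all of it from Col1a2 and Pdgfra. The 4 endothelial markers summed to 0.212 to 0.583 CPM in treated B16F10 and 22.7 to 46.4 CPM in treated 4T1. Pecam1 made up most of the endothelial sum in treated 4T1, with 20.7, 37.1 and 14.1 CPM, against 16.2, 12.6 and 10.7 CPM in untreated 4T1. Cdh5 was also on in treated 4T1, with 8.95, 8.86 and 7.87 CPM, against 0.235, 0.325 and 0.362 CPM in untreated 4T1. Kdr and Tek stayed under 1 CPM in both. The endothelial sum was 0.0511 to 0.175 CPM in untreated B16F10 and 11.2 to 16.5 CPM in untreated 4T1. Whether fewer cells of a type or less RNA per cell lies behind any level cannot be told apart in bulk samples.

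**Figure D1:**
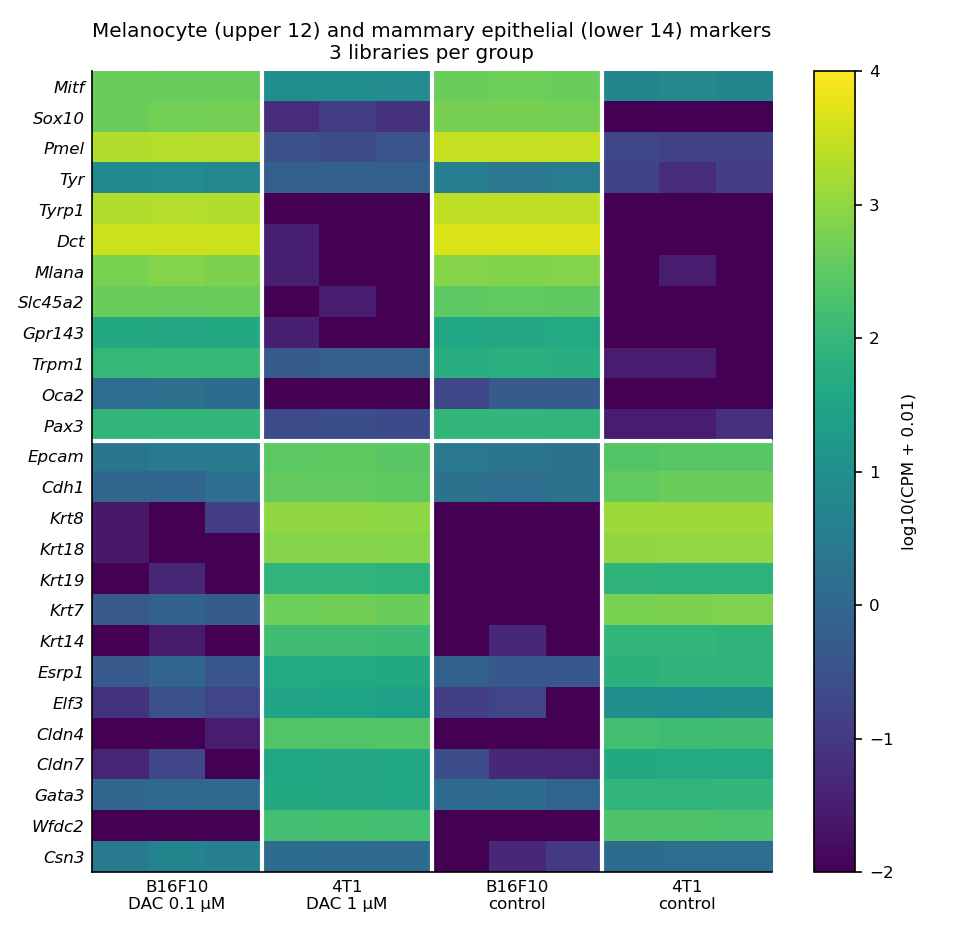
Levels of the 12 melanocyte markers (upper rows) and 14 mammary epithelial markers (lower rows) in each of the 12 libraries, coloured by log10(CPM + 0.01). The melanocyte rows are bright in the B16F10 columns and the epithelial rows in the 4T1 columns, with and without decitabine, and Csn3 is at 3.14 to 4.97 CPM in treated B16F10 against at most 0.0941 CPM in untreated B16F10.

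Of 17127 genes tested, 3973 (23.2%) were higher in treated B16F10 and 4755 (27.8%) higher in treated 4T1, so that 51% were called in either direction. The counts of list members called, given below, are to be read beside these shares. Between the untreated lines 3793 (22.1%) were higher in B16F10 and 3893 (22.7%) higher in 4T1. The median gene differed by -0.06 on the log2 scale between the treated lines and by -0.02 between the untreated lines. Scaling by library size only moved the treated median to 0.25, so small differences depend on the scaling. In the treated lines that scaling gave 5032 genes higher in B16F10 and 4108 higher in 4T1. The median absolute difference was 1.08 between the treated lines and 0.98 between the untreated lines.

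Most line differences remained. Of the 3793 genes higher in untreated B16F10, 2920 (77%) were also called higher in treated B16F10, and of the 3893 genes higher in untreated 4T1, 3120 (80.1%) were also called higher in treated 4T1. These made up 73.5% of the treated calls for B16F10 and 65.6% of those for 4T1. A further 731 genes of untreated B16F10 and 742 of untreated 4T1 were no longer called. For these, the change itself passed the test in 363 (49.7%) and 232 (31.3%). Another 142 genes were higher in untreated B16F10 but higher in treated 4T1, and 31 were higher in untreated 4T1 but higher in treated B16F10. The change was also called for each of these 173. Calls in opposite directions already need a wide change, so that is no separate test of the turn.

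Most of the widest differences stayed past 2-fold. Of 856 genes at least 32-fold higher in untreated B16F10, 527 (61.6%) were still at least 32-fold higher in treated B16F10, 289 (33.8%) lay between 2-fold and 32-fold, 29 (3.39%) were within 2-fold and 11 had turned. Their median difference was 5.71 on the log2 scale in the treated lines and 7.70 in the untreated lines. Of 1570 genes at least 32-fold higher in untreated 4T1, 1166 (74.3%) stayed at least 32-fold higher in treated 4T1, 384 (24.5%) lay between 2-fold and 32-fold and 18 (1.15%) were within 2-fold. Their median was -6.93 in the treated lines and -8.22 in the untreated lines. The genes were chosen on their untreated difference, so the pairs of medians are given as a description.

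**Figure D2:**
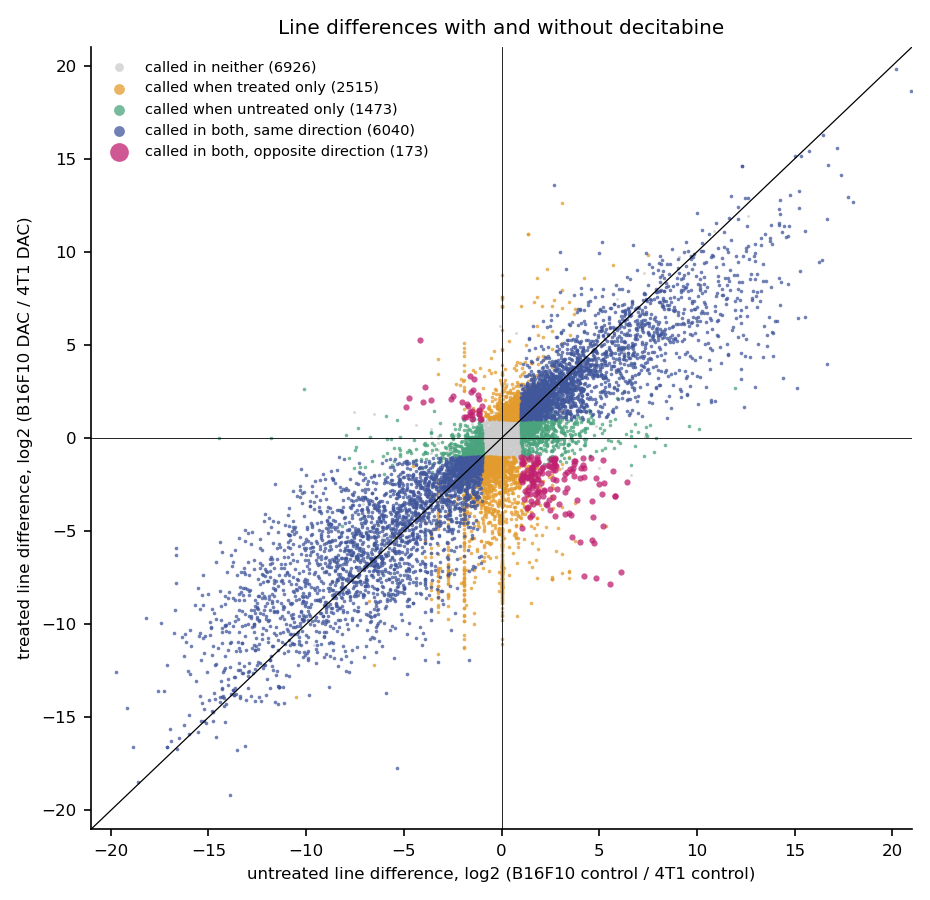
Each point is one of the 17127 genes, with the untreated line difference on the horizontal axis and the treated line difference on the vertical axis, both as log2 of B16F10 over 4T1, and the diagonal marks equality. Of these, 6040 were called in both in the same direction, 173 in opposite directions, 2515 in the treated lines only and 1473 in the untreated lines only.

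Pigment cell genes led the genes that treated B16F10 kept. Dct, which makes a melanin intermediate, had 3566, 3471 and 3518 CPM in treated B16F10, against 0.0242, 0 and 0 CPM in treated 4T1. Treated 4T1 held 1 count, so the ratio was 562204 (95% counting interval 100904 to 22205922). Tyrp1, a melanosomal enzyme, had 2080, 2132 and 2041 CPM in treated B16F10 and no count in treated 4T1, which makes it at least 111057-fold higher. Its untreated levels were 2735, 2647 and 2720 CPM in B16F10 and 0 in 4T1. Bounds and intervals of this kind cover counting error only, and a bound sets 3 counts over the 3 libraries for a group at 0.

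Pmel, which forms the fibrils of the melanosome, had 2090, 2166 and 2200 CPM in treated B16F10, against 0.29, 0.241 and 0.357 CPM in treated 4T1, a difference of 12.80 ± 0.10 (SE; adjusted p = 3.31e-23). Its difference was 14.25 between the untreated lines, and the change of -1.45 was called. Gpnmb, a melanosomal glycoprotein, had 8432, 9442 and 9346 CPM in treated B16F10 and 9.36, 10.8 and 9.26 CPM in treated 4T1. Mlana had 625, 760 and 673 CPM in treated B16F10 and 1 count in treated 4T1. Neither group of libraries came near the other for any of these genes.

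The transcription factors above these genes were also line-bound. Mitf, the master regulator of the melanocyte lineage, had 438, 402 and 409 CPM in treated B16F10, against 9.53, 8.54 and 7.82 CPM in treated 4T1. The difference was 5.60 ± 0.08 (SE; adjusted p = 2.94e-20), beside 6.25 between the untreated lines. Sox10, a neural crest factor, had 450, 533 and 546 CPM in treated B16F10 and 0.0484, 0.111 and 0.0621 CPM in treated 4T1. In untreated 4T1 Sox10 had no count, so that the 12 counts of treated 4T1 are at least 3.98-fold above the 3-count bound.

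Of the 33 melanocyte and pigment genes listed, all of them tested, 27 were called higher in treated B16F10 and 1, Lef1, higher in treated 4T1, with a median difference of 8.22 beside -0.06 over all tested genes. The median was 7.58 with genes at 0 in 1 line set at their 3-count bound. In the untreated lines the counts were 25 and 2, and 25 of the genes were called for B16F10 in both. Kit, the receptor of melanoblast growth, had 2.27, 2.9 and 2.41 CPM in treated B16F10, against 0.218, 0.185 and 0.0776 CPM in treated 4T1, and was off in both untreated lines. Tyr, the rate-limiting enzyme of melanin synthesis, averaged 7.02 CPM in treated B16F10 and 0.653 CPM in treated 4T1. Lef1, a Wnt pathway factor, had 3 counts in all in treated B16F10 and 1.63, 1.27 and 1.84 CPM in treated 4T1.

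Other genes with the highest levels among those at least 32-fold higher in treated B16F10 were Apoe, a lipid carrier with 694, 866 and 877 CPM against 2.73, 2.59 and 2.85 CPM in treated 4T1, and Ptgds, a prostaglandin D synthase with 668, 678 and 695 CPM against 0.121, 0.0741 and 0.0621 CPM. Nckap5l had 520, 598 and 623 CPM in treated B16F10 and 2.95, 2.98 and 3.49 CPM in treated 4T1. Mbp, a myelin component, had 1165, 1221 and 1265 CPM in treated B16F10 and 20.7, 22.7 and 17.6 CPM in treated 4T1. Rps2 and mt-Nd3 also met this rule, but 70.6% and 97.5% of their 31-base words occur in other genes. Rps2 had 1333, 1494 and 1459 CPM in treated B16F10, while its processed copy Rps2-ps10 had 3300, 3507 and 3490 CPM in treated 4T1. Rps12 and Rpl3-ps1, also at least 32-fold higher in treated 4T1, share 44.8% and 97.3% of their words. Estimated counts of such copies are uncertain.

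Keratins and adhesion genes were among the genes that treated 4T1 kept. Krt18, a keratin of simple epithelia, had 0.0163, 0 and 0 CPM in treated B16F10, against 802, 814 and 758 CPM in treated 4T1, so that the 4T1 level was 137142 times the B16F10 level (95% counting interval 24614 to 5416852). Its partner Krt8 had 7 counts in all in treated B16F10 and 1010, 1028 and 958 CPM in treated 4T1, with 35.7% of its words in other genes. Cdh1, or E-cadherin, had 0.931, 0.874 and 1.54 CPM in treated B16F10 and 360, 363 and 331 CPM in treated 4T1. Epcam, an epithelial adhesion protein, had 2.19, 2.83 and 2.85 CPM in treated B16F10 and 307, 326 and 292 CPM in treated 4T1. The treated libraries of the lines did not overlap for any of the 4 genes.

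Itga3, an integrin that binds laminins, had 0.098, 0.0171 and 0.276 CPM in treated B16F10, against 785, 784 and 800 CPM in treated 4T1. The untreated 4T1 libraries held 1926, 1917 and 2063 CPM. Clu, a secreted chaperone, had 0.588, 1.11 and 0.937 CPM in treated B16F10 and 760, 773 and 662 CPM in treated 4T1. S100a6, a calcium-binding protein, had 18.6, 20.7 and 21.2 CPM in treated B16F10 and 984, 938 and 897 CPM in treated 4T1, with a difference of -5.54 beside -7.67 between the untreated lines. The smaller treated difference of S100a6 was called as a change, of 2.13 (adjusted p = 2.67e-10).

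Of 50 epithelial and mammary genes listed, 42 were tested. Treated B16F10 was higher for 2, Csn3 and Pgr, and treated 4T1 for 35, with a median of -8.14 (-7.83 with such genes at their bound). Without the drug 1 and 36 were called, and 34 were called for 4T1 in both. Csn3, the milk protein kappa-casein, had 3.14, 4.97 and 3.91 CPM in treated B16F10, against 1.28, 1.26 and 1.23 CPM in treated 4T1. Csn3 was off in untreated B16F10 and had 1.33, 1.44 and 1.37 CPM in untreated 4T1, so its direction between the lines turned. Pgr, the progesterone receptor, had 0.441, 0.411 and 0.533 CPM in treated B16F10 and 1 count in treated 4T1.

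Among 25 regulators of epithelial-mesenchymal transition and cadherins, 21 were tested, 4 were higher in treated B16F10 and 13 in treated 4T1 (median -1.72). Over all tested genes 23.2% were higher in treated B16F10 and 27.8% in treated 4T1. Zeb2, a repressor of epithelial genes, had 184, 196 and 184 CPM in treated B16F10, against 15.8, 17.1 and 14.4 CPM in treated 4T1. The 4T1 level of Zeb2 was 48.9, 53.7 and 54.2 CPM without the drug. Cdh2, or N-cadherin, had 115, 120 and 109 CPM in treated B16F10 and 8 counts in treated 4T1. Of 42 extracellular matrix genes 39 were tested, with 9 higher in treated B16F10 and 23 in treated 4T1 (median -3.51). The 9 of 39 are close to the B16F10 share over all tested genes. Without treated B16F10 library 3 the counts were 10 and 23 and the median -2.11. The filter was run again for that fit, so the members tested may differ as well. Sparc, a matrix glycoprotein, had 1100, 1140 and 1175 CPM in treated B16F10 and 224, 220 and 210 CPM in treated 4T1. Mmp9, a gelatinase, had 0.0654, 0 and 0.0367 CPM in treated B16F10 and 416, 414 and 396 CPM in treated 4T1.

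Interferon-stimulated genes stood mostly higher in 4T1, and more so with the drug. All 68 listed genes were tested: 2 were higher in treated B16F10 and 56 in treated 4T1, with a median of -4.45. Between the untreated lines 11 were higher in B16F10 and 44 in 4T1, with a median of -2.13. The change was called in the direction of 4T1 for 30 of the 68, beside 10.6% of all tested genes, and in the direction of B16F10 for 7, beside 8.63%. Of the 68 genes 39 were on in treated B16F10 and 65 in treated 4T1, against 25 in untreated B16F10 and 47 in untreated 4T1.

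The members differed in how they came to this gap. Mx2, an antiviral GTPase, had 3.22, 3.79 and 3.53 CPM in treated B16F10, against 71.5, 68.8 and 81.2 CPM in treated 4T1. Mx2 differed by only -0.13 between the untreated lines, and its change of -4.26 was called (adjusted p = 1.56e-09). Cmpk2, a nucleotide kinase, stood higher in treated 4T1 (54, 60 and 58.9 CPM) than in treated B16F10 (6.99, 8.76 and 8.45 CPM) but higher in untreated B16F10 (5.88, 6.03 and 5.69 CPM) than in untreated 4T1 (0.94, 1.23 and 1.77 CPM). Irf7, the factor that amplifies interferon production, had 0.588, 1.06 and 1.05 CPM in treated B16F10 and 63.7, 65.7 and 64.7 CPM in treated 4T1.

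Some members met in the treated lines. Rsad2, an antiviral enzyme, had 59.2, 57.1 and 59.9 CPM in treated B16F10 and 70.6, 69.4 and 76.4 CPM in treated 4T1, a difference of -0.30 that was not called, with a 95% interval of -0.53 to -0.07. Rsad2 was higher in untreated B16F10 than in untreated 4T1 by 3.47. Others stayed apart: Trim25, which activates the RNA sensor RIG-I, had 0.523, 0.651 and 0.404 CPM in treated B16F10 and 270, 260 and 273 CPM in treated 4T1. Oasl1, a relative of the oligoadenylate synthetases, had 3.38, 3.43 and 3.95 CPM in treated B16F10 and 465, 482 and 476 CPM in treated 4T1. The 2 members higher in treated B16F10 were Lgals3bp, at 125, 148 and 148 CPM against 48.7, 50.9 and 42.9 CPM, and Ifit2, at 92, 81.7 and 81.7 CPM against 26.5, 25.9 and 23.2 CPM in treated 4T1.

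Antigen presentation kept its line gap. Of 23 MHC class I genes, all tested, none was called higher in treated B16F10 and 16 were higher in treated 4T1 (median -2.22), beside none and 15 between the untreated lines (median -2.69). At an unadjusted edgeR p under 0.05, with no fold minimum, 3 were higher in treated B16F10 and 19 in treated 4T1; DESeq2 and limma also called none for B16F10, and library size scaling called 1. H2-K1, a classical class I heavy chain, had 0.18, 0.223 and 0.108 CPM in treated B16F10, against 329, 340 and 359 CPM in treated 4T1. H2-D1 had 7.23, 6.55 and 7.64 CPM in treated B16F10 and 525, 543 and 547 CPM in treated 4T1. Of the 31-base words of H2-K1 and H2-D1, 22.9% and 27.5% occur in other genes. Psmb8, an immunoproteasome subunit, had 1 count in treated B16F10 and 33.3, 35 and 34.6 CPM in treated 4T1. The light chain B2m, which all class I molecules share, had 293, 343 and 326 CPM in treated B16F10 and 314, 328 and 323 CPM in treated 4T1, with an interval of -0.12 to 0.12 for the difference.

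Of 39 chemokines and cytokines, 33 were tested, 3 were higher in treated B16F10 and 26 in treated 4T1 (median -5.48). Over all tested genes the shares were 23.2% and 27.8%. Csf2, a granulocyte and macrophage growth factor, had 375, 550 and 457 CPM in treated B16F10, against 9.53, 9.47 and 11.2 CPM in treated 4T1. Cxcl10, which attracts T cells, had 17.8, 22 and 22.8 CPM in treated B16F10 and 225, 227 and 201 CPM in treated 4T1. Cxcl16 had 0.408, 0.771 and 0.276 CPM in treated B16F10 and 144, 149 and 153 CPM in treated 4T1. Of 25 checkpoint and natural killer ligands, 24 were found and 19 tested, with 6 higher in treated B16F10 and 10 in treated 4T1, beside the same shares of all tested genes. Cd276, an inhibitory B7 family ligand, had 0.098, 0.223 and 0.257 CPM in treated B16F10 and 69.7, 67.8 and 61.7 CPM in treated 4T1.

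**Figure D3:**
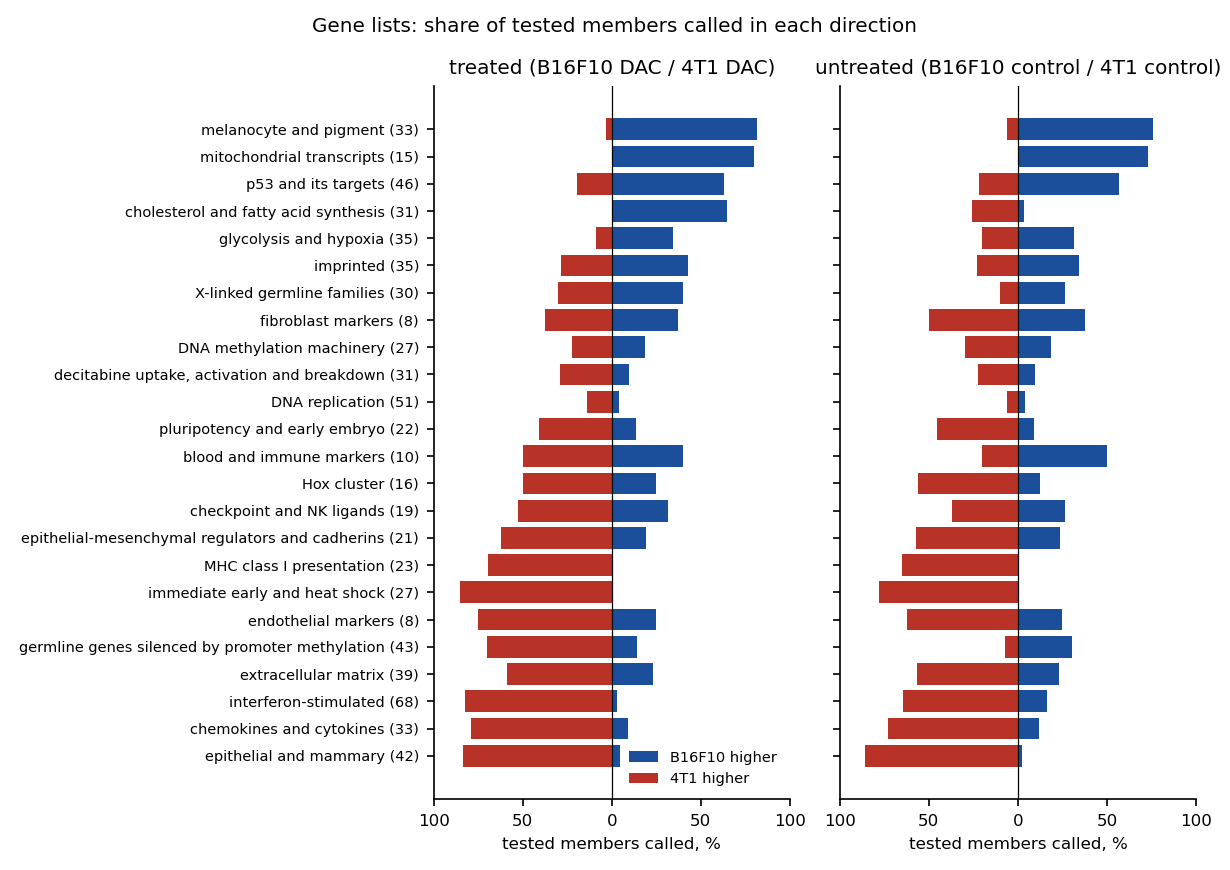
Share of the tested members of each gene list (number tested in brackets) called higher in B16F10 (to the right) or higher in 4T1 (to the left), between the treated lines in the left panel and between the untreated lines in the right panel. The lineage lists look alike in both panels, while the cholesterol list has 20 and 0 calls between the treated lines against 1 and 8 between the untreated lines, and the germline list has 6 and 30 against 13 and 3.

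The cholesterol and fatty acid synthesis genes parted under treatment. Of 32 listed genes 31 were tested, and all 31 were on in all 4 groups. Treated B16F10 was higher for 20 and treated 4T1 for none, with a median of 1.17, whereas untreated B16F10 was higher for 1 and untreated 4T1 for 8, with a median of -0.48. The change was called toward B16F10 for 28 of the 31, beside 8.63% of all tested genes, and toward 4T1 for none. With library size scaling the treated counts were 23 and none, and with RLE size factors 19 and none. DESeq2 and limma also called none higher in treated 4T1, while at an unadjusted edgeR p under 0.05, with no fold minimum, 29 were higher in treated B16F10 and 2 in treated 4T1.

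Scd2, a stearoyl-CoA desaturase, had 2124, 1986 and 2006 CPM in treated B16F10, against 463, 456 and 427 CPM in treated 4T1, a difference of 2.18 ± 0.06 (SE; adjusted p = 2.70e-16). Untreated B16F10 had 2623, 2541 and 2630 CPM and untreated 4T1 1999, 2187 and 2396 CPM, so the treated 4T1 libraries stood apart from the other 9. Sqle, the squalene epoxidase, had 335, 318 and 332 CPM in treated B16F10 and 46.6, 50.6 and 45.8 CPM in treated 4T1. Nsdhl, a sterol dehydrogenase, had 57.5, 64.3 and 62.8 CPM in treated B16F10 and 10.4, 11.7 and 9.82 CPM in treated 4T1. Hmgcs1, which makes the substrate of HMG-CoA reductase, had 136, 125 and 120 CPM in treated B16F10 and 55.2, 54.7 and 54.1 CPM in treated 4T1, although untreated 4T1 had 224, 322 and 334 CPM and untreated B16F10 103, 90.7 and 96.8 CPM.

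Fdps, the farnesyl diphosphate synthase, followed the same order, with 145, 142 and 151 CPM in treated B16F10 and 65.8, 67.3 and 61.7 CPM in treated 4T1, but 51.1% of its words occur in other genes. Srebf2, the transcription factor of the sterol pathway, had 260, 259 and 281 CPM in treated B16F10 and 69.7, 72.9 and 71.7 CPM in treated 4T1. Acss2, an acetyl-CoA synthetase, had a treated difference of -0.53 beside -0.48 between the untreated lines. The change was not called for 3 tested members, Ebp, Srebf1 and Acss2.

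**Figure D4:**
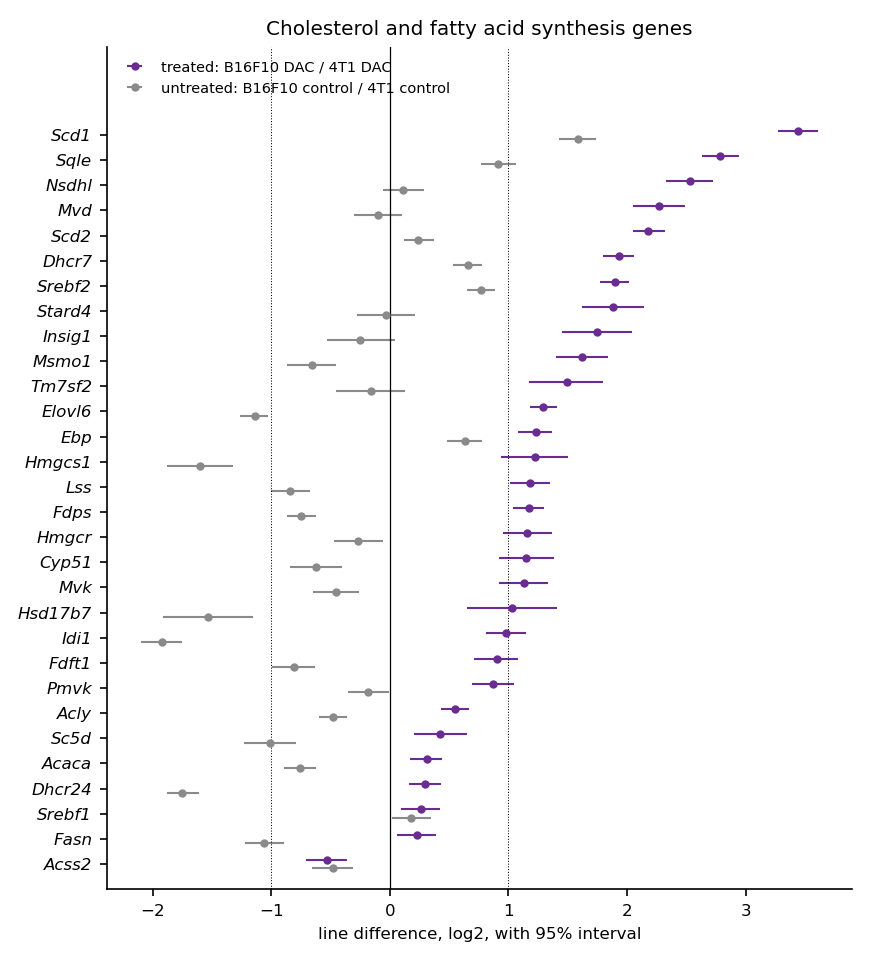
Line differences of tested cholesterol and fatty acid synthesis genes, as log2 of B16F10 over 4T1 with its 95% interval, between the treated lines (upper point of each pair) and between the untreated lines (lower point). The treated points of Scd1, Sqle and Nsdhl lie at 3.44, 2.78 and 2.53, and each treated point lies to the right of its untreated partner except for Acss2.

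The p53 targets were higher in treated B16F10 for 29 of 46 tested genes (of 47 listed) and in treated 4T1 for 9, beside 23.2% and 27.8% of all tested genes. Their median difference was 1.47, beside -0.06 over all tested genes. Between the untreated lines 26 and 10 were called, with a median of 1.06, and the change was called toward B16F10 for 17 and toward 4T1 for 3, beside 8.63% and 10.6% of all tested genes. Ccng1, a p53-induced cyclin, had 762, 732 and 731 CPM in treated B16F10, against 49.3, 51 and 48.8 CPM in treated 4T1. Its levels were 172, 172 and 180 CPM in untreated B16F10 and 70.3, 71.9 and 66.7 CPM in untreated 4T1, and its change of 2.57 was called (adjusted p = 3.11e-15). Cdkn1a, the cell cycle inhibitor p21, had 531, 538 and 553 CPM in treated B16F10 and 44.6, 45.8 and 45.8 CPM in treated 4T1, a difference of 3.57 beside 3.68 between the untreated lines, and its change of -0.11 was not called. Perp, an adhesion gene among the targets, had 0.735, 0.411 and 0.716 CPM in treated B16F10 and 135, 142 and 135 CPM in treated 4T1.

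Trp53 itself averaged 154 ± 8.75 CPM in treated B16F10 and 89.7 ± 4.64 CPM in treated 4T1 (SD, n = 3 each). Its difference of 0.78 (interval 0.66 to 0.90) was under the 2-fold minimum, but with library size scaling it was 1.09 and called. The reverse held for Tnfrsf10b, a death receptor called higher in treated 4T1 at -1.03, which was -0.72 and not called with that scaling.

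Among the enzymes that decitabine traps, 2 were called higher in treated B16F10. Dnmt1, the maintenance methyltransferase, had 175, 190 and 177 CPM in treated B16F10, against 342, 341 and 323 CPM in treated 4T1. The difference of -0.89 (interval -1.01 to -0.78) was under 2-fold, beside -0.56 between the untreated lines. Dnmt3a, a methyltransferase that sets new marks, had 168, 158 and 169 CPM in treated B16F10 and 18.9, 17.7 and 21.9 CPM in treated 4T1, a difference of 3.08 ± 0.12 (SE; adjusted p = 3.43e-11). Dnmt3b had 9.13, 10.1 and 7.77 CPM in treated B16F10 and 4.47, 4.17 and 4.36 CPM in treated 4T1. Its difference of 1.06 just passed, and was 0.95 with DESeq2 and with RLE size factors, 0.94 without the second treated B16F10 library and 0.99 without the second treated 4T1 library. Uhrf1, which brings Dnmt1 to DNA, differed by -0.41 both in the treated and in the untreated lines.

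Among 28 genes of the DNA methylation machinery 27 were tested, with 5 higher in treated B16F10 and 6 in treated 4T1, beside 23.2% and 27.8% of all tested genes. Their median of -0.21 turned to 0.10 with library size scaling. Of 33 genes of decitabine uptake, activation and breakdown, 31 were tested, with 3 and 9 called and a median of -0.29 that turned to 0.02 with that scaling. Samhd1, which hydrolyses deoxynucleotide triphosphates, had 37.2, 38.6 and 39 CPM in treated B16F10 and 103, 105 and 101 CPM in treated 4T1. Slc29a4, a nucleoside and monoamine transporter, had 1.39, 2.09 and 1.97 CPM in treated B16F10 and 0.242, 0.352 and 0.326 CPM in treated 4T1, and 1 and 0 counts in the untreated lines. All 51 replication genes were on in all 4 groups, and 42 of them were not called between the treated lines.

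The number of genes on was 11468 in treated B16F10 and 12481 in treated 4T1, against 11158 in untreated B16F10 and 11517 in untreated 4T1. In both treated lines 10479 genes were on, and in both untreated lines 10107. Of the 10479, 9978 (95.2%) were on in all 4 groups. For 5939 (59.5%) of these 9978 the 95% interval of the treated difference lay within 2-fold, beside 6214 (62.3%) for the untreated difference, and 3198 (32.1%) were called between the treated lines. On in treated B16F10 and off in treated 4T1 were 242 genes, and 705 were on in treated 4T1 and off in treated B16F10. Between the untreated lines these counts were 392 and 770.

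A gene off in both untreated lines was seldom on in both treated lines. Of 28639 such genes, 47 (0.164%) were on in treated B16F10, 195 (0.681%) in treated 4T1 and 17 in both. The 17 make up 36.2% of those on in treated B16F10 and 8.72% of those on in treated 4T1. They were Taf7l, Dazl, Sohlh2, Tdrd12, AI481877, Tex19.1, Tex19.2, 4930550L24Rik, Rhox2a, Tuba3b, Tuba3a, Slc25a31, Gm364, Xlr4a, Gm10718, Gm10717 and Gm37924. Of these, 16 are annotated as protein coding and 5 lie on the X chromosome (29.4%, beside 6.98% of the genes off in both untreated lines). The share on X was 29.8% of the 47 on in treated B16F10 and 19% of the 195 on in treated 4T1. Both of those sets include the 17, so the X share is not particular to the genes on in both. The levels chose these genes, so no test of their rise is given.

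Among genes with official symbols, Tdrd12, Tex19.2 and Xlr4a lay just inside the limit, with 1.14, 1.21 and 1.28 CPM in their lowest treated libraries. Gm10717 had 1.25 CPM in its lowest. Just outside, again by official symbol, lay Fthl17c, Fthl17d and Tex15, at 0.981, 0.942 and 0.9 CPM. The count was 46 where on meant 0.5 CPM and 9 where it meant 2 CPM. Between the treated lines 1 of the 17 was called higher in B16F10 and 14 higher in 4T1, beside 23.2% and 27.8% of all tested genes, with a median of -1.98. The same treated libraries chose the 17, so these counts are a description.

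The sequences upstream of 5 of these genes and of Fkbp6, taken up below, are shown as examples of the promoters concerned. The 250 bases before each RefSeq start on build GRCm38.p6 are given 5′ to 3′ along the gene, with each CG, the site of DNA methylation, in capitals. Dazl lies at chr17:50293621-50293870 (minus strand, 20 CG), Taf7l at chrX:134476491-134476740 (minus, 14 CG), Sohlh2 at chr3:55181794-55182043 (plus, 14 CG), Slc25a31 at chr3:40708621-40708870 (plus, 18 CG), Tex19.1 at chr11:121145893-121146142 (plus, 15 CG) and Fkbp6 at chr5:135350045-135350294 (minus, 17 CG).
Dazl: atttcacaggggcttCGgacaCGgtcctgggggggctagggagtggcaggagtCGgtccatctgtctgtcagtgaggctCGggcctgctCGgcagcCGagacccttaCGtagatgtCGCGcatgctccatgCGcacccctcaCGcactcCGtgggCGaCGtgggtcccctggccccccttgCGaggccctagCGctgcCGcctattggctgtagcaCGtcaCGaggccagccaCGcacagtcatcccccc
Taf7l: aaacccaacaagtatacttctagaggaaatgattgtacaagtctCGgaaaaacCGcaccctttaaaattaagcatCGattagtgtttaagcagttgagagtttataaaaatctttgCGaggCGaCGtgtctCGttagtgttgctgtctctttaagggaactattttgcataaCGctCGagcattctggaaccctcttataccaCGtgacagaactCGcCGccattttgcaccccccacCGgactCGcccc
Sohlh2: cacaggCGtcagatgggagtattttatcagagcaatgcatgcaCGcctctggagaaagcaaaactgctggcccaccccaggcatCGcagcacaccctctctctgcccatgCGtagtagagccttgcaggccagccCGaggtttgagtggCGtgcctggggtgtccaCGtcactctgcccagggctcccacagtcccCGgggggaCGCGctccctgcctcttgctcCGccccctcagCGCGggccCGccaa
Slc25a31: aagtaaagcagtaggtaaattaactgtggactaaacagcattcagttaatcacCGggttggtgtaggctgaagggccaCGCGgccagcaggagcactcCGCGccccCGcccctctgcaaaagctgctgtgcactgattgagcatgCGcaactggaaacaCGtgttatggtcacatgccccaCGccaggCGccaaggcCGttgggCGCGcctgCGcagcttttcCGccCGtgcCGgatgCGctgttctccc
Tex19.1: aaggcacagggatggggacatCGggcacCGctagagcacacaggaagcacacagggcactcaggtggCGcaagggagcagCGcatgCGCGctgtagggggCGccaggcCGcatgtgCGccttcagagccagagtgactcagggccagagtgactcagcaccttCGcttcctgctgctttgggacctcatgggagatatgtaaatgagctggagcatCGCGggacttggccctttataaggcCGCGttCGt
Fkbp6: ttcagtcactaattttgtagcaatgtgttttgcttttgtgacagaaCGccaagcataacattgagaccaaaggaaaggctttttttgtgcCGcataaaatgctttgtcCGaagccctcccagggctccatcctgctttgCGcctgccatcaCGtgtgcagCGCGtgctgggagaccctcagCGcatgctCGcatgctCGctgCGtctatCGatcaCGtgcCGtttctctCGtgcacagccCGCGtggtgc

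Of the 17 genes 13 matched a RefSeq promoter, and these held 2 to 20 CG with a median of 10. The median was 3 over the 7474 genes off in both untreated lines that had a promoter, 17 over 7847 genes on in all 4 groups and 9 over all 19220. Among the 7474, it was 7 over the 35 on in treated B16F10 and 7 over the 126 on in treated 4T1. Both of those sets include the 13. The E-box CACGTG, searched on both strands as it is its own reverse complement, occurred in 3 of the 13 (Taf7l, Slc25a31 and Gm364) and in 6.57% of all promoters. TCCCGC, searched on both strands, occurred in 3 of the 13 (Tex19.1, Tuba3a and Tuba3b) and in 21% of all promoters, and TGACGTCA in none of the 13 and in 1.98%. Over the 7474 genes off in both untreated lines the shares were 4.25% for CACGTG, 8.59% for TCCCGC and 0.977% for TGACGTCA. Over the 35 and the 126 the shares were 8.57% and 11.9% for CACGTG, and 22.9% and 18.3% for TCCCGC. No difference between these shares was tested. A match describes these letters only.

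Dazl, a germ cell RNA-binding protein, had 1.41, 1.39 and 1.78 CPM in treated B16F10, against 131, 127 and 116 CPM in treated 4T1. Its 3 untreated B16F10 libraries held no count and its untreated 4T1 libraries 1 count. The treated difference was -6.35 ± 0.10 (SE), the widest among the 17. Taf7l, a germ cell subunit of the general transcription factor TFIID, had 5.03, 5.76 and 5.92 CPM in treated B16F10 and 79, 77.1 and 77.5 CPM in treated 4T1. Slc25a31, the ADP/ATP carrier of germ cells, had 2.92, 3.17 and 2.68 CPM in treated B16F10 and 40.4, 41.5 and 39.4 CPM in treated 4T1. The 3 treated libraries of each line stayed close to each other for all 3 genes, and the lines did not overlap.

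Tex19.1, which restrains transposons in germ cells, had 9.43, 10 and 9.85 CPM in treated B16F10, against 54.7, 59.1 and 53.2 CPM in treated 4T1, and 1 and 5 counts in the untreated lines. Its neighbour Tex19.2 had 1.21, 1.87 and 1.4 CPM in treated B16F10 and 6.05, 5.97 and 5.71 CPM in treated 4T1. Sohlh2, a transcription factor of early germ cell differentiation, had 1.8, 2.43 and 1.95 CPM in treated B16F10 and 11.4, 13.3 and 11.5 CPM in treated 4T1, with no count in any of the 6 untreated libraries. That is at least 121-fold above the 3-count bound in B16F10 and at least 639-fold in 4T1. Tdrd12, a Tudor protein of the piRNA pathway, had 1.26, 1.77 and 1.14 CPM in treated B16F10 and 4.93, 4.73 and 4.55 CPM in treated 4T1.

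The testis alpha-tubulin Tuba3b had 12.9, 18 and 16.2 CPM in treated B16F10, against 78.2, 82.7 and 76.9 CPM in treated 4T1. Its paralogue Tuba3a had 3.85, 5.83 and 6.08 CPM in treated B16F10 and 10.7, 11 and 10.8 CPM in treated 4T1. That Tuba3a difference of -1.05 was -0.74 with library size scaling and -0.89 without the first treated B16F10 library, and then not called. Of their words 43% and 51.6% occur in other genes. The X-linked genes 4930550L24Rik, Rhox2a and Xlr4a broke the order. The first of them had 3.48, 2.52 and 3.56 CPM in treated B16F10 and 2.08, 2.17 and 1.83 CPM in treated 4T1, with a difference of 0.65 (interval 0.16 to 1.15) that was under 2-fold and not called, and none of its words occur in other genes. Rhox2a, a reproductive homeobox gene, had 4.12, 4.11 and 4.67 CPM in treated B16F10 and 3.52, 3.87 and 3.23 CPM in treated 4T1, with a difference of 0.28 (interval -0.12 to 0.68) that was not called. Xlr4a had 3.21, 3.81 and 3.32 CPM in treated B16F10 and 1.32, 1.28 and 1.57 CPM in treated 4T1, the gene of the 17 called higher in B16F10. Of the words of Rhox2a and Xlr4a 97.8% and 83.9% occur in other genes, so their counts are uncertain. The same holds for Gm10718 and Gm10717 of the 17, with 87% and 67.5%.

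**Figure D5:**
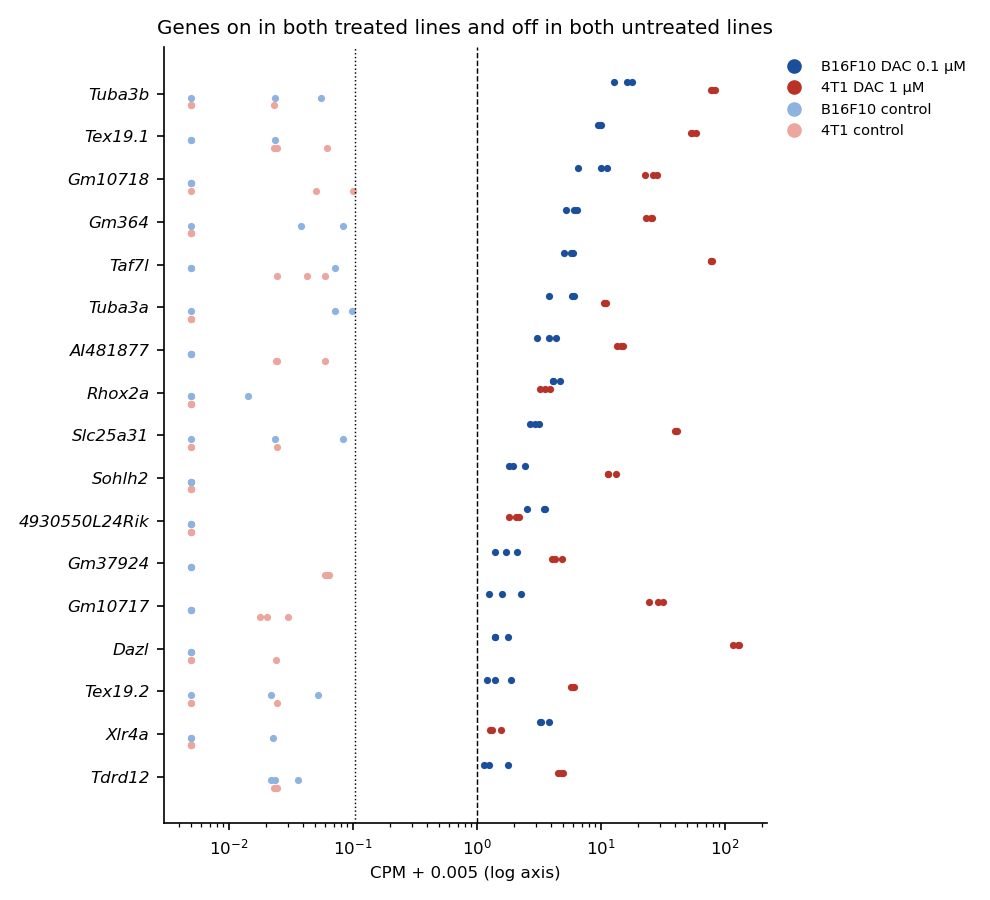
Levels of the 17 genes on in both treated lines and off in both untreated lines, in each of the 12 libraries, as CPM + 0.005 on a log axis; the dashed line is the on limit of 1 CPM and the dotted line the off limit of 0.1 CPM. The treated 4T1 points lie to the right of the treated B16F10 points for most genes, and furthest for Dazl, at 116 to 131 CPM against 1.39 to 1.78 CPM.

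A wider germline list holds 53 genes chosen as ones that adult cells keep silent by promoter methylation, which was not measured here. On were 21 of the 53 in treated B16F10 and 35 in treated 4T1, against 7 in untreated B16F10 and 4 in untreated 4T1, and 34 were off in both untreated lines. Both treated lines shared 19 that were on. Of 43 that passed the filter, 6 were higher in treated B16F10 and 30 in treated 4T1 (median -3.26), beside 13 and 3 between the untreated lines (median 0.00). Most members passed through the group where they are high, so these counts are a description. Mael, a piRNA pathway protein, had 0.0327, 0.0171 and 0.0367 CPM in treated B16F10 and 4.64, 5.87 and 5.99 CPM in treated 4T1, with no count in the untreated libraries. Ddx4, the germ cell helicase Vasa, had 0.997, 0.788 and 1.23 CPM in treated B16F10 and 49.9, 49.6 and 50.2 CPM in treated 4T1, although untreated B16F10, with 39 counts, was above untreated 4T1, with 1.

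Of the 6 members higher in treated B16F10, Piwil2, Zcwpw1, Fkbp6, Cpeb1 and Tdrkh also had levels above 1 CPM in untreated B16F10. Piwil2, a piRNA-binding protein, had 136, 126 and 120 CPM in treated B16F10, against 32, 31.5 and 30.8 CPM in treated 4T1. In untreated cells it had 132, 126 and 130 CPM in B16F10 and 0.0392, 0.0542 and 0.133 CPM in 4T1. Zcwpw1, a meiotic histone reader, had 83.1, 88.7 and 80.6 CPM in treated B16F10 and 15.6, 15.8 and 14.5 CPM in treated 4T1. Rec8, a meiotic cohesin, was the member off in both untreated lines and higher in treated B16F10, with 1.94, 2.19 and 2.52 CPM against 0.121, 0.111 and 0.0776 CPM in treated 4T1.

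Of 48 X-linked germline family genes, 15 were on in treated B16F10 and 17 in treated 4T1, against 6 in untreated B16F10 and 2 in untreated 4T1. Of the 48, 36 were off in both untreated lines. Of the 30 tested, 12 were higher in treated B16F10 and 9 in treated 4T1, beside 23.2% and 27.8% of all tested genes. Tested members that were off without the drug passed the filter through a treated group where they are high, so these counts are a description. The median of 0.04 was -0.06 with RLE size factors and DESeq2 and 0.35 with library size scaling. Leaving out 1 library at a time gave -0.13 (10 and 10 called, without treated B16F10 library 2) to 0.29 (without treated 4T1 library 2), so the sign of the median changed between these fits. The filter was run again in each of them, so the members tested may differ as well. Rhox5, a homeobox gene, had 53.8, 69 and 57.5 CPM in treated B16F10 and 27.4, 26.5 and 28.1 CPM in treated 4T1. Its difference of 1.14 was 1.00 and not called without the second treated B16F10 library. Rhox13 had 0, 0.0171 and 0.0367 CPM in treated B16F10 and 2.18, 2.46 and 2.16 CPM in treated 4T1. Nxf2, an RNA export factor, had 0.67, 0.891 and 1.05 CPM in treated B16F10 and 9.46, 9.08 and 8.29 CPM in treated 4T1.

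Xist, the RNA that coats an inactive X chromosome, had 62, 52.8 and 57.7 CPM in treated B16F10, against 166, 181 and 181 CPM in treated 4T1. Untreated B16F10 had 0.402, 0.518 and 0.204 CPM and untreated 4T1 0.157, 0.0903 and 0.133 CPM. The treated lines differed by -1.62 ± 0.08 (SE; adjusted p = 3.58e-12), the untreated lines by 1.53.

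Genes silent in only 1 untreated line mostly did not come on. Of 392 genes off in untreated 4T1 and on in untreated B16F10, 33 (8.42%) were on in treated 4T1 and 190 (48.5%) were still off. Of 770 genes off in untreated B16F10 and on in untreated 4T1, 15 (1.95%) were on in treated B16F10 and 459 (59.6%) were still off. The difference between these shares was not tested, and the dose differed with the line.

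Among genes with official symbols, the 8 that came on highest in treated 4T1 were Neto2, Fkbp6, Clvs1, Gstp2, Tex14, Gypc, Cdkn1c and Peg10. Neto2, a partner of kainate receptors, had 60.8, 55.3 and 56.7 CPM in treated B16F10, against 17.7, 17.5 and 18.8 CPM in treated 4T1. Untreated B16F10 had 44, 48 and 44.9 CPM and untreated 4T1 1 count. Fkbp6, an immunophilin of the piRNA pathway, had 222, 238 and 234 CPM in treated B16F10 and 14.1, 14.6 and 14.5 CPM in treated 4T1, with 222, 233 and 234 CPM in untreated B16F10 and none in untreated 4T1. Treated 4T1 was at least 765-fold above the bound, and still 16-fold below treated B16F10. Tex14, needed for the bridges between germ cells, had 26.2, 24.8 and 25.6 CPM in treated B16F10 and 7.01, 7.1 and 7.2 CPM in treated 4T1.

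The predicted gene Gm11427, at 11.4, 10.2 and 12.3 CPM, and Gm21967, at 7.63, 8.08 and 8.32 CPM, also came on in treated 4T1, above Tex14, Gypc, Cdkn1c and Peg10 by their means. Their treated differences of 0.62 and 0.58 were not called, and Cdkn1c was not called either. This imprinted inhibitor of the cell cycle had 6.19, 8.53 and 6.6 CPM in treated B16F10, against 6.68, 6.76 and 6.07 CPM in treated 4T1, a difference of 0.13 (interval -0.15 to 0.41). Untreated B16F10 had 5.75, 5.61 and 6.32 CPM and untreated 4T1 5 counts. Peg10, an imprinted gene derived from a retrotransposon, kept a difference of 5.03, with 177, 159 and 173 CPM in treated B16F10 and 5.05, 5.61 and 4.92 CPM in treated 4T1. Gypc, a red cell membrane glycoprotein, had 25.8, 26.2 and 28.8 CPM in treated B16F10 and 7.09, 7.12 and 6.69 CPM in treated 4T1. Clvs1 and Gstp2 share 42.3% and 74.5% of their words with other genes, and Cdkn1c 30.9%.

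The 8 with official symbols that came on highest in treated B16F10 were Akr1b8, Csn3, Npnt, Afp, Ptgr1, Gbp7, Tnfrsf26 and Spns2. Akr1b8, an aldo-keto reductase, had 6.55, 8.74 and 6.39 CPM in treated B16F10, against 29, 29.4 and 26.8 CPM in treated 4T1, with 5 counts in untreated B16F10 and 30.4, 33.2 and 32.2 CPM in untreated 4T1. Npnt, an integrin ligand of the basement membrane, had 2.47, 2.93 and 2.63 CPM in treated B16F10 and 46, 47 and 41.6 CPM in treated 4T1. Spns2, a sphingosine-1-phosphate transporter, had 1.26, 2.5 and 1.87 CPM in treated B16F10 and 86.9, 89.8 and 85.7 CPM in treated 4T1. Afp, alpha-fetoprotein, had 2.61, 2.43 and 2.7 CPM in treated B16F10 and 19.6, 20.3 and 19.9 CPM in treated 4T1. Apart from Csn3, treated 4T1 stayed higher in all 8.

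The change between treated and untreated line differences was called toward B16F10 for 1478 genes (8.63%) and toward 4T1 for 1823 (10.6%). With library size scaling the counts were 2165 and 1529, and without a fold minimum they were 4949 and 3577. Which direction held more genes therefore depends on the scaling and on the fold minimum. Among genes called between the treated lines only, Celf2, an RNA-binding splicing factor, had the smallest p toward B16F10, with 199, 188 and 184 CPM in treated B16F10, against 35.4, 34.1 and 35.4 CPM in treated 4T1. Untreated B16F10 had 162, 159 and 154 CPM and untreated 4T1 106, 108 and 107 CPM. Apaf1, the core of the apoptosome, had 116, 101 and 104 CPM in treated B16F10 and 21.4, 21 and 22.2 CPM in treated 4T1. Klhl42, an adaptor of a ubiquitin ligase, had 75.2, 68.9 and 72.1 CPM in treated B16F10 and 12.8, 13.2 and 13.1 CPM in treated 4T1.

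Toward 4T1 the genes included Rab3gap1, Noct, Ppp2r5a, Baiap2l1 and Stx18. Rab3gap1, a subunit of a Rab GTPase regulator, had 994, 1048 and 952 CPM in treated B16F10, against 18826, 17424 and 19484 CPM in treated 4T1. Untreated B16F10 had 303, 284 and 297 CPM and untreated 4T1 488, 531 and 531 CPM. Noct, a phosphatase with a circadian rhythm, had 5807, 6235 and 5583 CPM in treated B16F10 and 26569, 25536 and 28165 CPM in treated 4T1, beside 2236, 2139 and 2072 CPM in untreated B16F10 and 1246, 1350 and 1406 CPM in untreated 4T1. Of the words of Rab3gap1, Noct and Stx18, 9.58%, 28.8% and 20.5% occur in other genes, and of those of Ppp2r5a 30.9%. Exons of other genes cover 32.3% of the exonic bases of Stx18. The words were matched to annotated transcripts only, so repeats elsewhere in the genome were not looked for. Counts per gene do not tell which part of a gene the reads came from, and whether repeats add to these counts was not tested. Ppp2r5a, a regulatory subunit of a protein phosphatase, had 75.9, 73.3 and 72.1 CPM in treated B16F10 and 320, 315 and 319 CPM in treated 4T1. Baiap2l1, which shapes actin-rich membranes, had 27.3, 30.3 and 32.3 CPM in treated B16F10 and 209, 212 and 195 CPM in treated 4T1.

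Olfr1372-ps1 and Cd209c belong beside these, as genes at least 32-fold higher in treated 4T1. Olfr1372-ps1, an olfactory receptor pseudogene, had 13.8, 12 and 11.6 CPM in treated B16F10, against 1628, 1511 and 1842 CPM in treated 4T1. Cd209c, a lectin gene, had 8.13, 11.1 and 9.88 CPM in treated B16F10 and 1314, 1273 and 1566 CPM in treated 4T1. In untreated 4T1 they had at most 20.4 and 16.5 CPM. Of their words 20.8% and 24.9% occur in other genes.

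Among the 173 genes whose direction turned, the 6 per direction with the smallest p are given; they were picked after their values were seen. Dglucy, a D-glutamate cyclase, had 58.4, 57.8 and 59 CPM in treated B16F10, against 6.12, 7.1 and 6.39 CPM in treated 4T1, while untreated B16F10 had 7.09, 8.19 and 8.28 CPM and untreated 4T1 23.2, 19.8 and 19.4 CPM. Elovl6, a fatty acid elongase, had 88.8, 82.2 and 81.2 CPM in treated B16F10 and 33.7, 35.4 and 34 CPM in treated 4T1, beside 179, 191 and 200 CPM in untreated 4T1. Lpin1, a phosphatidate phosphatase, had 33.9, 34.5 and 34.3 CPM in treated B16F10 and 6.41, 6.23 and 4.75 CPM in treated 4T1. The other 3 toward B16F10 were Aldoc, Slc19a2 and Adamts14, at 1.93, 1.03 and 1.30. The treated call of Slc19a2, a thiamine transporter, was lost at 0.92 with DESeq2 and with RLE size factors, at 0.99 with a filter at a mean of 1 CPM, and at 0.94 to 1.00 without treated B16F10 library 1 or 3, treated 4T1 library 3, or untreated 4T1 library 1 or 3.

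Toward 4T1, Sgip1, an endocytic adaptor, had 69.5, 74.7 and 69.3 CPM in treated B16F10, against 208, 191 and 217 CPM in treated 4T1, while untreated B16F10 had 65.3, 60.8 and 62.4 CPM and untreated 4T1 13.2, 14.9 and 15.6 CPM. Dusp8, a phosphatase of MAP kinases, had 29.2, 31.7 and 33.5 CPM in treated B16F10 and 110, 110 and 144 CPM in treated 4T1. Cspg4, a melanoma-associated proteoglycan, had 1.26, 0.96 and 1.07 CPM in treated B16F10 and 14, 14.1 and 10.9 CPM in treated 4T1. Hist1h2bc, a histone H2B gene, turned to -1.01 in the treated lines, and was -0.70 with library size scaling, -0.95 without the first treated B16F10 library and -0.99 without treated 4T1 library 3, and then not called. Cmpk2 and Ddx4, given above, complete the 6.

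The remaining lists are given by their counts, to be read beside 23.2% of all tested genes higher in treated B16F10 and 27.8% higher in treated 4T1. Of 35 glycolysis and hypoxia genes 12 were higher in treated B16F10 and 3 in treated 4T1 (median 0.55), beside 11 and 7 between the untreated lines; with library size scaling the treated counts were 15 and 2 (median 0.86). Gapdh had 5809, 6694 and 6778 CPM in treated B16F10 and 1175, 1217 and 1152 CPM in treated 4T1, and 43.1% of its words occur in other genes. Of 46 imprinted genes 35 were tested, with 15 and 10 called. Their median of 0.12 was 0.44 with library size scaling, 0.02 with RLE size factors and DESeq2, and 0.02, 0.03 and 0.06 without treated B16F10 library 1, treated B16F10 library 2 and treated 4T1 library 3. Sgce, imprinted beside Peg10, had 62.2, 62.7 and 64.1 CPM in treated B16F10 and 0.314, 0.296 and 0.217 CPM in treated 4T1, while Snrpn had no count in B16F10 with or without the drug and 13.6, 13.3 and 13.3 CPM in treated 4T1. Of 39 Hox genes 16 were tested, with 4 and 8 called (median -1.11); without treated B16F10 library 2 there were 4 and 9 (median -1.68). Of 40 pluripotency and early embryo genes 22 were tested, with 3 and 9 called (median -0.97), and without treated B16F10 library 1 there were 3 and 12 (median -1.79). The filter was run again in each fit without a library, so its list members tested may differ from those counted here. Dppa4, a chromatin protein of early embryos, had 3.95, 3.91 and 3.14 CPM in treated B16F10 and 0.411, 0.296 and 0.248 CPM in treated 4T1, with no count in the untreated lines.

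Lists that mark sample state and other cell types also differed between the treated lines. Of 27 immediate early and heat shock genes none was higher in treated B16F10 and 23 were higher in treated 4T1 (median -2.63), beside none and 21 between the untreated lines. At an unadjusted edgeR p under 0.05, 2 were higher in treated B16F10; DESeq2 and limma called none, and library size scaling called 1. Junb, an AP-1 subunit, had 16.6, 21.5 and 20.9 CPM in treated B16F10, against 728, 768 and 875 CPM in treated 4T1. Of 15 mitochondrial transcripts 12 were higher in treated B16F10 and none in treated 4T1 (median 1.70), beside 11 and none between the untreated lines (median 1.37). At an unadjusted edgeR p under 0.05 all 15 were higher in treated B16F10, and DESeq2 and limma called none for 4T1. Of 10 tested blood markers 4 and 5 were called, of 8 fibroblast markers 3 and 3, and of 8 endothelial markers 2 and 6. Cd68, a lysosomal protein of macrophages, had 133, 166 and 170 CPM in treated B16F10 and 8.39, 9.27 and 8.25 CPM in treated 4T1, whereas Ptprc, the pan-leukocyte marker CD45, stayed at 0.0343 to 0.147 CPM in treated B16F10 and 0.822 to 1.48 CPM in treated 4T1. The part of these levels in the other line differences was not tested.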

How the data were processed

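RNA was measured in 12 libraries. The deposited tables, 1 per line, hold estimated counts per gene that the authors made; RSEM, edgeR and the build mm10 are named in the submitters' processing notes, while versions, annotation and strandedness are not stated there. Per the labels' protocols, dead cells were removed and the library kit offers molecular indices; whether these were used in counting is not given. The tables were joined on 46517 identifiers, 46005 of which matched GENCODE M21, and counts were rounded. With edgeR 4.0.16 (R 4.3.3), genes were filtered with filterByExpr, scaled by TMM and fitted over all 12 libraries as 4 groups by the robust quasi-likelihood test with Benjamini-Hochberg adjustment over 17127 genes, with contrasts for the treated difference, the untreated difference and their change. DESeq2 1.42.0 and limma 3.58.1 were alternatives. The fit was tested on simulated data. A count of 3 is 0.0395 to 0.0622 CPM. Replicates differed beyond sampling noise (chi-square per degree of freedom at least 6.15). Genes were named by rule: those with the highest level among differences of at least 32-fold without overlap, the highest in each class of genes on, the smallest p for the change, and the highest members of each list; genes whose direction turned, and other list members given, were chosen after their values were seen. Some named genes are not reported here. Shared sequence is the share of sampled 31-base words of a gene's transcripts that occur in an annotated transcript of another gene. A low share therefore says nothing of repeats outside annotated transcripts. Members and lists were chosen with earlier results of these data known.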

Additional observations from a re-analysis of the deposited data

Results flagged for a closer look

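For 11 genes the line difference changed with treatment in the edgeR test of the change itself, and they are among those with the smallest p of the genes called between the treated lines only. The values are the treated minus the untreated log2 difference of B16F10 over 4T1. The change was 1.88 for Celf2, 1.94 for Scd2, 1.92 for Fdps, 2.05 for Pqlc3, 1.63 for Klhl42 and 1.59 for Apaf1, with adjusted p between 3.41e-13 and 3.59e-11. It was -3.41 for Rab3gap1, -2.88 for Noct, -1.87 for Ppp2r5a, -2.85 for Baiap2l1 and -3.60 for Stx18. Pqlc3 had 30.1, 32.6 and 31.1 CPM in treated B16F10, against 13.3, 13.5 and 13.3 CPM in treated 4T1, a treated difference of 1.23 beside -0.82 between the untreated lines. Stx18, a SNARE protein of the endoplasmic reticulum, had 44, 54.2 and 49.1 CPM in treated B16F10, against 310, 290 and 358 CPM in treated 4T1, 40.6, 36.1 and 39.1 CPM in untreated B16F10 and 22.2, 18.9 and 20.9 CPM in untreated 4T1.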

How the results depend on the processing

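No named gene that was called turned its direction under the alternatives run, but library size scaling turned which line had more treated calls, at 5032 for B16F10 and 4108 for 4T1. Without a fold minimum the treated calls were 6866 and 7461 (B16F10 higher, then 4T1 higher), the untreated calls 6493 and 6852, the changes 4949 and 3577 and the differences that remained 5361 and 5505. At a 4-fold minimum the treated B16F10 calls were 2090, the untreated 2191, those that remained 1594, and the changes 695 and 1170. The genes on in both treated lines and off in both untreated lines, off in untreated B16F10 only and off in untreated 4T1 only numbered 46, 41 and 63 with on at 0.5 CPM, 9, 5 and 19 with on at 2 CPM, and 28, 27 and 50 with off under 0.2 CPM. With off under 0.05 CPM the first 2 of these numbers were 8 and 7. The cause of these moves is the limit itself. Leaving out 1 library at a time gave 3860 to 3992 and 4810 to 5123 treated calls, 3668 to 3775 and 3955 to 4105 untreated calls, 1404 to 1493 and 1684 to 1834 changes, 2810 to 2878 and 3145 to 3250 that remained, 10479 to 10532 genes on in both treated lines, and 17 to 22, 15 to 19 and 33 to 38 in the 3 classes of genes that came on. The filter was run again in each of these fits, so the genes tested differed. With all libraries the 4755 treated, 3893 untreated and 3120 remaining calls for 4T1 lay below these ranges. The 3793 untreated and 2920 remaining calls for B16F10 lay above them. Same-numbered libraries showed no shared deviation from their group means (correlations -0.111 to 0.0321). That cannot tell whether they were handled together, which the labels do not give. With the replicate block 3921 and 4718 treated calls were made and 2877 and 3069 differences remained. Near the 0.1 CPM limit a library holds few counts, so off means not detected at this depth.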
